A study of Mus musculus with 6 samples.

Results

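Cannabinoid receptors and the enzymes and carrier that make, move and break down their lipid ligands were examined in mouse Ba/F3-N cells by the genes Cnr1, Cnr2, Daglb, Napepld, Abhd4, Faah, Mgll, Abhd6, Abhd12 and Fabp5. They were chosen by name, as the probe sets (groups of short probes that report 1 transcript) that the platform annotation pairs with exactly 1 gene, that gene being 1 of these 10. This gave 19 of the 45037 probe sets that are no control, and every gene had at least 1. Ba/F3 is a mouse pro-B line whose growth depends on interleukin-3, and Ba/F3-N is its derivative, described in the labels as murine, bone marrow-derived and transformed with NRAS-G12D, an oncogenic form of a RAS GTPase. Both groups carried that transformation and were kept in medium with fetal bovine serum. In the first group, cells of 3 samples received 1 µM N-arachidonoyl dopamine (NADA) and were collected after 12 hours. In the second, cells of 3 samples received an equal volume of vehicle and were collected after the same 12 hours. RNA of each sample was read on 1 Affymetrix Mouse Genome 430 2.0 array. The labels do not say whether replicates were separate cultures, so the p-values reflect only array-to-array spread, which may be technical, and 3 arrays per group limit the precision.

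As background, endocannabinoids are lipids made on demand from membrane phospholipids, of which anandamide and 2-arachidonoylglycerol are the best known. They act on the G protein-coupled receptors CB1, found above all on neurons, and CB2, found above all on immune cells and B cells in particular, and serine hydrolases end their action inside the cell. NADA is itself an arachidonic acid conjugate of this kind that acts on CB1 and on the channel TRPV1. The comparison asks which of these transcripts differ in NRAS-driven cells after NADA.

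In the list of Ba/F3 pro-B and mast-progenitor genes 11 of 16 measured members lay at or above 39.0, the median intensity of all probe sets, among them the interleukin-3 receptor genes and Gata2. The 5 below it were the B-lineage genes Pax5, Ebf1, Cd79a and Vpreb1 and the receptor gene Kit, whereas the B-lineage genes Cd79b (112 in NADA and 81.0 in vehicle) and Igll1 (log2 fold change 0.19, not called) lay above it. Of the 16 members 7 rose, with Cd79b (log2 fold change 0.46) among them. The interleukin-3 receptor genes Csf2rb2 (2.35) and Csf2rb (1.75) rose most. The 3 that fell were Gata2 (-0.21), Cpa3 (-0.24) and Fcer1g (-0.14). Of 5 T and NK cell markers and of 6 fibroblast and endothelial markers 0 rose and 0 fell by limma on the brightest probe sets, with 1 in each list at an unadjusted p under 0.05. Array medians ran from 38.92 to 39.11 in NADA and from 37.95 to 38.13 in vehicle. Of all 45037 probe sets 39.9% were called (limma, Benjamini-Hochberg adjusted p under 0.05), 20.0% higher and 19.8% lower in NADA, so a call by itself is common here. The bacterial poly-A control RNAs, which are added before labelling, averaged 8.72 ± 0.21 on the log2 scale in NADA and 8.14 ± 0.01 in vehicle (SD, n = 3 each). The 3′ over 5′ ratio of actin (Actb), on the log2 scale, averaged 1.06 ± 0.05 in NADA, against 0.67 ± 0.04 in vehicle, and the same ratio of Gapdh averaged -0.07 ± 0.06 in NADA, against -0.22 ± 0.03 in vehicle. The hybridization controls, added after labelling, averaged 10.08 ± 0.05 on the log2 scale in NADA and 9.93 ± 0.10 in vehicle. The poly-A 3′ over 5′ ratio, on the log2 scale, averaged 1.31 ± 0.02 in NADA and 1.08 ± 0.01 in vehicle. Each of these measures was without overlap between the groups. Each had p = 0.1 in a two-sided exact permutation test, the smallest that 3 against 3 arrays allow. They separate the same arrays as the treatment, so their part in the results below cannot be told apart from it. Scaled to the poly-A RNAs, every log2 fold change is lower by 0.58, the median of all probe sets is -0.56, and the calls split into 1578 higher and 37097 lower, against 9024 and 8929 as deposited. Scaled to the hybridization controls, the median is -0.13 and the split 5350 and 12363. Calls and p-values under both scalings, here and below, come from the same fit after each array was shifted by its own control mean. The poly-A level itself had an SD of 0.21 in NADA, and this scatter moves all probe sets of an array together. The fit treats it as separate noise of each probe set and pools its variance over all of them. The p-values under scaling are therefore too small, and calls under scaling only describe where the shifted values lie. Changes below are with the values as deposited, relative to the bulk of probe sets, whose median log2 fold change was 0.02.

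Of the 10 genes, Cnr2, Abhd4 and Abhd12 rose and Daglb, Faah and Fabp5 fell in NADA by their brightest probe sets, 6 of 10 genes where 44.1% of all genes were called by theirs (52.0% without overlap). The receptor gene Cnr1, the synthesis gene Napepld and the breakdown genes Mgll and Abhd6 were not called on any probe set. Among the 19 probe sets 4 were called higher and 5 lower, which is 9 called against the 39.9% called among all probe sets. The groups did not overlap for 10 of the 19, against 47.8% of all probe sets. Both shares are near the background. The size of the changes was uneven: 5 of the 19 differed at least 2-fold, namely those of Cnr2, Abhd4 and Fabp5, while 5.40% of all probe sets did. The median log2 fold change of the 19 was 0.02, as it was for all probe sets.

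**Figure D1:**
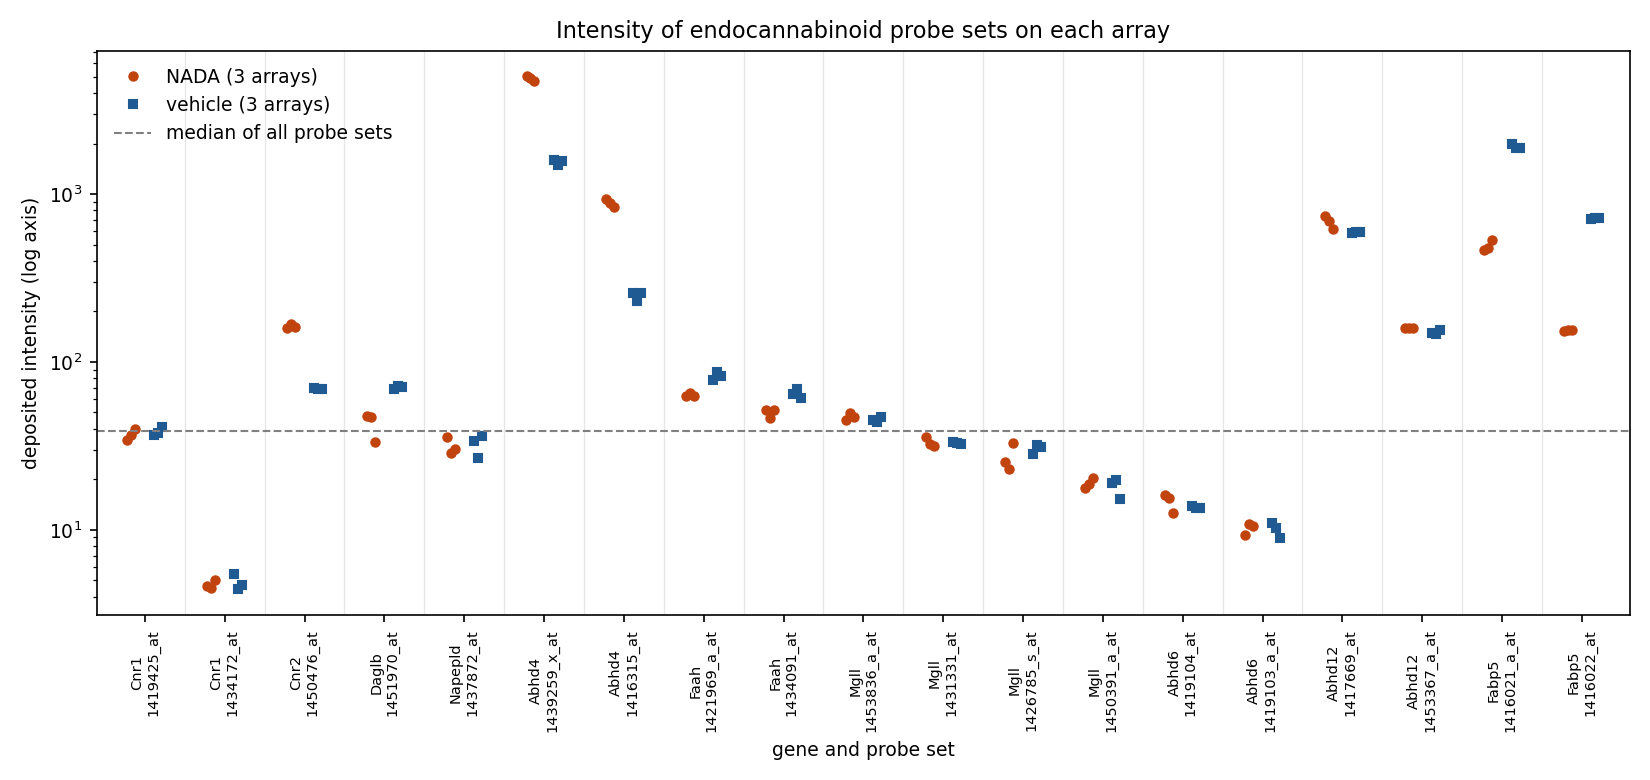
Deposited intensity (log axis) of each of the 19 probe sets on each array, with NADA (circles, 3 arrays) left of vehicle (squares, 3 arrays) and the median of all probe sets as a dashed line. Cnr2 and Abhd4 lie higher and Fabp5, Faah and Daglb lower in NADA with no overlap, and both Cnr1 probe sets overlap. Heights of different probe sets are not comparable with each other.

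Cnr2, which encodes the CB2 receptor, rose. Its only probe set, 1450476_at, read 158, 167 and 162 in NADA and 70.3, 68.6 and 69.3 in vehicle. Every NADA array was far above every vehicle array, and neither group spread much. The log2 fold change was 1.23 ± 0.06 (SE), a 2.34-fold difference (adjusted p = 1.61e-10), and it stood above 98.6% of all probe sets. It was 0.65, still called, when scaled to the poly-A RNAs. CB2 is also a macrophage receptor, and of the 6 macrophage markers measured 3 rose by their brightest probe sets, namely Adgre1 (log2 fold change 1.36), Lyz2 (0.74) and Cd68 (0.65), and 0 fell. The summed intensity of that list ran from 785 to 827 in NADA and from 444 to 472 in vehicle. Csf1r, the macrophage growth factor receptor gene, averaged 69.3 ± 3.47 in NADA and 61.3 ± 3.75 in vehicle (SD, n = 3 each) and was not called by its brightest probe set (log2 fold change 0.18, adjusted p = 0.0951), while 1 of its 3 probe sets was called higher. The myeloid markers Itgam (9.84 in both groups) and Mrc1 (6.47 in NADA and 6.27 in vehicle) were dim throughout. The part of this list in the Cnr2 result was not tested, and in these bulk samples more cells of a type and more RNA per cell cannot be told apart.

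Cnr1, which encodes the CB1 receptor and is best known from brain, showed no detectable difference at this precision. Probe set 1419425_at read 34.3, 36.5 and 40.0 in NADA and 36.5, 37.9 and 40.7 in vehicle. The second, 1434172_at, read 4.62, 4.53 and 5.03 in NADA and 5.49, 4.44 and 4.70 in vehicle. Both overlapped between groups and had means below the median of all probe sets, and no detection calls were used here to say whether they measured any transcript. The log2 fold changes were -0.05 (95% interval -0.25 to 0.14, adjusted p = 0.707) and -0.04 (-0.26 to 0.18, adjusted p = 0.814). Both were called lower when scaled to the poly-A RNAs, at -0.63 and -0.62, beside a median of -0.56 for all probe sets. Of 4 neuron markers measured 0 were called by limma on their brightest probe sets, with 1 at an unadjusted p under 0.05. Of their other probe sets, 1 of the 4 of Syt1 was called higher and 1 of the 3 of Rbfox3 lower.

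To show the sequence in front of the genes that changed, the 250 bases before each start annotated by RefSeq (build GRCm38.p6) are shown here for the receptor gene that rose, in lower case with any match to the searched motifs in capitals. These 7 motifs, searched on both strands (overlapping matches share their capitals), included the E-box, spelled CACGTG, and the GC box, a common promoter element spelled GGGCGG. The AP-1 site was searched as TGANTCA, the ETS transcription factor site as CCGGAAGT and the FOXO transcription factor site as GTAAACA. The TATA box was searched as TATAAA, and the last motif was the interferon-stimulated response element. The first Cnr2 window is chr4:135894939-135895188 and the second chr4:135911430-135911679, both on the plus strand.
Cnr2 first start: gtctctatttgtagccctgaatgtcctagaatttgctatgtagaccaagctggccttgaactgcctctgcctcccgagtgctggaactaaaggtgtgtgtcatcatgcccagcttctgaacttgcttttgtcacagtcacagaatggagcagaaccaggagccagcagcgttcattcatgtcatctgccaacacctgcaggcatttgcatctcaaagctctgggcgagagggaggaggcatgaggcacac
Cnr2 second start: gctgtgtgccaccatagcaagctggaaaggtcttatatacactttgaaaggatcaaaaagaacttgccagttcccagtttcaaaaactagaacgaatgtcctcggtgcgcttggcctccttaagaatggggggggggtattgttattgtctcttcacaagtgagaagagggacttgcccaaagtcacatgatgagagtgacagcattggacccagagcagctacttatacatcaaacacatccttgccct
Neither holds a match, so neither has capitals. Over all windows of this length in the table the E-box was found in 6.0%, the AP-1 site in 6.7%, the FOXO site in 3.2%, the interferon-stimulated response element in 3.0% and the TATA box in 12.4%. Each has 3 CpG dinucleotides, with 51.6% and 46.4% G and C, against a median of 6 CpG and 52.4% over the 32851 windows of the table. The first 2 of the 3 Cnr1 windows, not printed, have 36 and 28 CpG with 79.2% and 68.8% G and C, and the third has 5 CpG and 49.2%.

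Among the synthesis genes, Abhd4 rose. ABHD4 is a hydrolase that, in mouse, takes acyl chains off N-acyl phosphatidylethanolamines on a route to N-acylethanolamines such as anandamide. Probe set 1439259_x_at read 5025, 4925 and 4715 in NADA and 1599, 1495 and 1567 in vehicle, and the type x means that it can bind other transcripts as well. Probe set 1416315_at, of the plain type, read 930, 888 and 836 in NADA and 257, 231 and 256 in vehicle. On both, each NADA array was far above each vehicle array. The log2 fold changes were 1.65 ± 0.03 (3.15-fold, adjusted p = 1.19e-14) and 1.83 ± 0.05 (3.57-fold, adjusted p = 3.78e-13), above 99.4% and 99.6% of all probe sets. Scaled to the poly-A RNAs they were 1.08 and 1.26, and both remained called. The 2 annotated starts of Abhd4 lie at chr14:54253879-54254128 and chr14:54259033-54259282 (the 250 bases before each, plus strand), with matches to the GC box in capitals.
Abhd4 first start: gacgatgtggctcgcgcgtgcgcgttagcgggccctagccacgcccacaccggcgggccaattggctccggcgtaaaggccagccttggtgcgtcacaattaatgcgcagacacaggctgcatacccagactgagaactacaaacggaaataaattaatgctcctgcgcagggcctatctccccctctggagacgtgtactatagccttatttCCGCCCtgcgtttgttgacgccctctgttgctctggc
Abhd4 second start: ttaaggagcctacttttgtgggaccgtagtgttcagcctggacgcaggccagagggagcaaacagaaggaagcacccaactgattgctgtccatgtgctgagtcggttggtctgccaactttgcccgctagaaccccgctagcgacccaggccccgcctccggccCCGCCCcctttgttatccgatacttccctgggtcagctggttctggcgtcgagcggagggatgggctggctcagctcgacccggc
Each window holds 1 GC box, a motif found in 32.7% of all windows of this length.

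Daglb, which encodes a diacylglycerol lipase that makes 2-arachidonoylglycerol, fell. Its only probe set, 1451970_at, read 47.8, 47.1 and 33.4 in NADA and 68.8, 71.8 and 71.1 in vehicle. The vehicle arrays were close together, whereas NADA replicate 3 was well below the other NADA arrays, and the SD of the log2 values was 0.29 in NADA and 0.03 in vehicle. The log2 fold change was -0.74 ± 0.12 (adjusted p = 6.11e-05), or 1.67-fold lower in NADA, and -0.57 without NADA replicate 3 (adjusted p = 2.52e-05). With 32 added before log2 it was -0.46, and scaled to the poly-A RNAs -1.32, still called in both. The 250 bases before the start of Daglb (chr5:143464243-143464492, plus strand) hold 1 ETS site, shown in capitals as its reverse complement, 11 bases before the start.
Daglb start: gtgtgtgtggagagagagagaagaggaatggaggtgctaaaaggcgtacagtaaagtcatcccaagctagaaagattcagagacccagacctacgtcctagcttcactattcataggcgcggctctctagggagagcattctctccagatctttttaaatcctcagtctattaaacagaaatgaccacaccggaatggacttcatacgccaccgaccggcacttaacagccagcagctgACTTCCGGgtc
The ETS motif was found in 2.9% of all windows.

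Napepld, which encodes the phospholipase D that releases N-acylethanolamines from their phospholipid precursors, was not called. Its only probe set, 1437872_at, read 35.8, 28.8 and 30.3 in NADA and 33.7, 26.8 and 36.4 in vehicle. The groups overlapped fully and the probe set was below the median of all, with a log2 fold change of -0.03 (95% interval -0.28 to 0.23, adjusted p = 0.899). It was called lower, at -0.60, when scaled to the poly-A RNAs. Of the 3 synthesis genes 1 therefore rose, 1 fell and 1 was not called with the values as deposited.

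Faah, which encodes the fatty acid amide hydrolase that breaks down anandamide, fell modestly on both of its probe sets. Probe set 1421969_a_at read 62.3, 64.9 and 62.3 in NADA and 77.7, 87.5 and 83.0 in vehicle. Probe set 1434091_at read 51.5, 46.2 and 51.6 in NADA and 64.2, 68.9 and 61.2 in vehicle. Each NADA array was below each vehicle array on both. The log2 fold changes were -0.39 ± 0.07 (adjusted p = 0.000426) and -0.38 ± 0.08 (adjusted p = 0.00136), or 1.31-fold and 1.30-fold lower in NADA, and they differed from each other by 0.01. Scaled to the poly-A RNAs they were -0.97 and -0.96. The 250 bases before the start of Faah (chr4:116017925-116018174, minus strand, written along the gene) hold 2 GC boxes, in capitals.
Faah start: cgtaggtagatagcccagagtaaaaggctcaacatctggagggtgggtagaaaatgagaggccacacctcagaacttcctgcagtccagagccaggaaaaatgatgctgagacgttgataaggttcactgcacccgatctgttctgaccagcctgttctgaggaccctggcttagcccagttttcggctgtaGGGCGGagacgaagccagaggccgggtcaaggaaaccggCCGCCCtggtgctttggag

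Mgll encodes monoacylglycerol lipase, the main 2-arachidonoylglycerol hydrolase of brain, and was not called on any of its 4 probe sets. The brightest, 1453836_a_at, read 45.3, 49.4 and 46.7 in NADA and 45.3, 43.7 and 47.1 in vehicle. Its log2 fold change was 0.05 (95% interval -0.12 to 0.23, adjusted p = 0.666). The others had means between 18.4 and 33.1, all below the median, and log2 fold changes between -0.19 and 0.08. The lowest of these, 1426785_s_at, a type that can bind transcripts of several genes, read 25.5, 22.9 and 33.0 in NADA and 28.3, 32.1 and 31.3 in vehicle. That probe set was called lower without NADA replicate 3 (-0.34, adjusted p = 0.0218), the array that stood apart from the other NADA arrays in it. It was also called lower when scaled to the hybridization controls (-0.34, adjusted p = 0.0242), and under the poly-A scaling all 4 were called lower, between -0.76 and -0.50.

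Abhd6, a further hydrolase of 2-arachidonoylglycerol that acts at the cell membrane, was dim on both probe sets. Probe set 1419104_at read 16.2, 15.5 and 12.6 in NADA and 13.8, 13.6 and 13.5 in vehicle, with a log2 fold change of 0.11 (95% interval -0.13 to 0.34, adjusted p = 0.513). Probe set 1419103_a_at averaged 10.2 ± 0.81 in NADA and 10.1 ± 1.09 in vehicle (SD, n = 3 each; log2 fold change 0.02, adjusted p = 0.929). The poly-A scaling turned them to lower calls, at -0.47 and -0.56. All 8 probe sets of the 10 genes below the median intensity were uncalled by limma, 0 at an unadjusted p under 0.05 as well, where 11.6% of all probe sets below it were called. At or above the median 9 of 11 were called, against 68.2% of all probe sets there.

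Abhd12, which encodes a hydrolase of lysophosphatidylserine that can also cleave 2-arachidonoylglycerol, rose slightly on 1 of 2 probe sets with the values as deposited. Probe set 1417669_at read 740, 694 and 622 in NADA and 587, 596 and 598 in vehicle. The vehicle arrays lay close together and the NADA arrays spread more widely, with the lowest, NADA replicate 3, nearest to vehicle. The log2 fold change was 0.20 ± 0.05 (adjusted p = 0.00679). Probe set 1453367_a_at read 160, 160 and 159 in NADA and 150, 147 and 156 in vehicle, and at 0.08 (95% interval -0.04 to 0.21, adjusted p = 0.29) it was not called. This rise turned to -0.38 when scaled to the poly-A RNAs (adjusted p = 0.00303), was not called when scaled to the hybridization controls (0.05, adjusted p = 0.638), with no intensity trend (adjusted p = 0.0639) or with a floor of 50 (adjusted p = 0.141), and without NADA replicate 1 or 3 was 0.15 or 0.27.

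Fabp5 encodes a fatty acid binding protein that carries anandamide through the cytosol to its hydrolase and also carries fatty acids to nuclear receptors. Its fall was the deepest change among the 10 genes. Probe set 1416021_a_at read 466, 475 and 535 in NADA and 1980, 1886 and 1882 in vehicle. Probe set 1416022_at read 153, 154 and 155 in NADA and 710, 716 and 717 in vehicle. The groups were far apart on both, and on the second the arrays of each group were nearly equal. The log2 fold changes were -1.96 ± 0.05 (adjusted p = 6.75e-14) and -2.21 ± 0.05 (adjusted p = 1.12e-14), or 3.90-fold and 4.64-fold lower in NADA. They stood at percentiles 0.2 and 0.1 of all probe sets, and scaled to the poly-A RNAs they were -2.54 and -2.79. Of 4 adipocyte markers, a cell type rich in such carriers, 0 rose and 0 fell by limma, 0 at an unadjusted p under 0.05 as well, and their summed intensity ran from 42.8 to 45.4 in NADA and from 41.8 to 45.3 in vehicle.

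**Figure D2:**
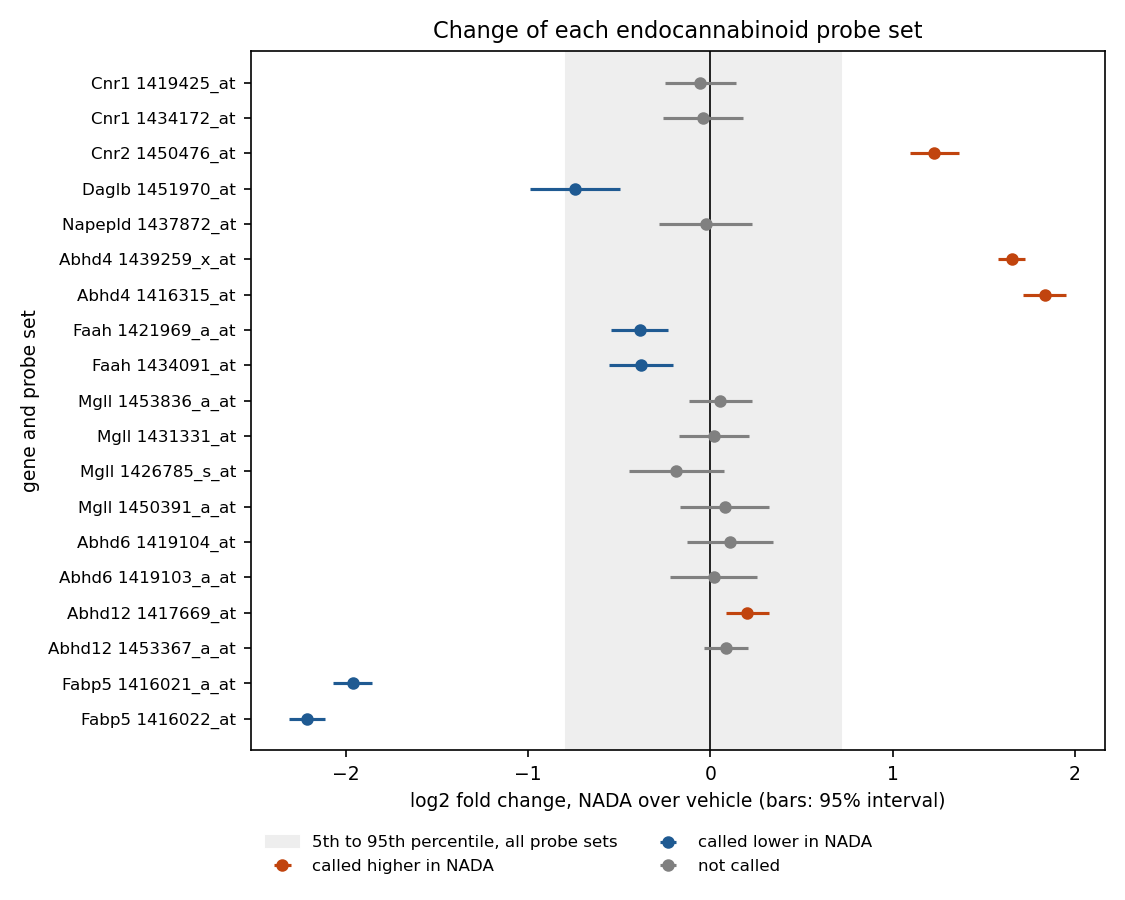
Log2 fold change, NADA over vehicle, of the 19 probe sets with 95% intervals of the limma fit (3 arrays per group), coloured by call. The grey band spans the 5th to 95th percentile of all probe sets, -0.79 to 0.72. Only the probe sets of Cnr2, Abhd4 and Fabp5 lie outside it.

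Among the 7 genes with several probe sets, none had calls in both directions. All probe sets of Abhd4, Faah and Fabp5 were called, 1 of 2 of Abhd12, and none of Cnr1, Mgll and Abhd6. The gap between the highest and lowest log2 fold change was 0.01 for Faah and Cnr1, 0.09 for Abhd6, 0.12 for Abhd12, 0.18 for Abhd4, 0.25 for Fabp5 and 0.27 for Mgll.

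The genes nearest in pattern were taken as those with the smallest root mean square distance between log2 values centred on their own mean over the 6 arrays, among 10061 genes. For Cnr2 they were Rnf13 (distance 0.02), Stx11 (0.03) and Aff1 (0.03), with log2 fold changes of 1.23, 1.19 and 1.19. For Abhd4 they were Bbip1, Syvn1 and Naip5, with log2 fold changes of 1.69, 1.66 and 1.66 and distances of 0.03 each. For Fabp5 they were Slco4a1, Pfas and Foxs1, at -2.04, -2.05 and -1.99, with distances from 0.06 to 0.07. A like difference between the groups is fixed by this choice and is no observation about these genes.

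Related genes of the pathway moved in both directions. Of 65 genes in 6 further lists 61 had a probe set of their own, of which 22 rose, 11 fell and 28 were not called, with a median log2 fold change of 0.05. Among the brightest probe sets of all 18193 genes 22.1% were called higher and 22.0% lower, with a median of 0.02. Of the 22 that rose, 8 kept a positive value when scaled to the poly-A RNAs.

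Among the other receptor and channel genes listed 1 of 8 rose and 0 fell. The channel gene Trpv2 averaged 675 ± 26.0 in NADA and 285 ± 6.68 in vehicle (SD, n = 3 each; log2 fold change 1.24 ± 0.05). Trpv1, the vanilloid channel that NADA activates, averaged 6.77 ± 0.34 in NADA and 6.98 ± 0.49 in vehicle (log2 fold change -0.04, adjusted p = 0.798). This probe set was dim, below the median of 39.0, and no detection calls were used to say whether it measured any transcript. Trpv4 (-0.11) and the lipid-activated nuclear receptor gene Ppara (-0.10) were not called either. Gpr55 had no probe set of its own in the annotation.

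Among signalling partners of the receptors 4 of 10 rose and 1 fell. The inhibitory G protein subunits Gnai3 (0.53 ± 0.03) and Gnai2 (0.38 ± 0.04), through which both receptors signal, rose, as did the adenylyl cyclase gene Adcy7 (0.59 ± 0.04). Scaled to the poly-A RNAs Gnai3 and Gnai2 turned to -0.05 and -0.20 and Adcy7 stood at 0.01. The arrestin gene Arrb2, whose product uncouples and internalises activated receptors, fell on both of its probe sets, with 430 ± 12.7 in NADA and 864 ± 31.0 in vehicle (SD, n = 3 each; log2 fold change -1.01 ± 0.04). The other beta-arrestin gene, Arrb1, rose, with 141 ± 8.96 in NADA and 104 ± 5.00 in vehicle (log2 fold change 0.45 ± 0.07), and turned to -0.13 when scaled to the poly-A RNAs.

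Among other synthesis genes 7 of 13 rose and 1 fell. The phosphatase genes Ptpn22 (1.29 ± 0.08) and Inpp5d (0.71 ± 0.04), linked in mouse macrophages to a phospholipase C route to anandamide, rose, and so did the phospholipase gene Plcg1 (0.40 ± 0.06) on 1 of 3 probe sets, although Plcg1 turned to -0.18 when scaled to the poly-A RNAs. The phosphodiesterase gene Gde1, which acts in sequence with ABHD4, fell (-0.49 ± 0.05), with 357 ± 24.7 in NADA and 498 ± 9.03 in vehicle. Dagla, the other diacylglycerol lipase gene, was dim and not called (17.9 ± 1.80 in NADA and 16.4 ± 2.36 in vehicle, log2 fold change 0.13, adjusted p = 0.456).

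Among other breakdown genes 4 of 10 rose and 1 fell. Naaa, the lysosomal acid amidase that hydrolyses N-acylethanolamines, fell on its brightest of 3 probe sets (221 ± 5.99 in NADA and 337 ± 1.07 in vehicle, log2 fold change -0.61 ± 0.05), the only 1 of the 3 called. The ceramidase gene Asah1, a relative of Naaa, rose by 0.68 ± 0.04. Abhd2 and the triglyceride lipase gene Pnpla2 rose by 0.24 each, on 1 of 3 and 1 of 2 probe sets, and both turned to -0.34 when scaled to the poly-A RNAs. Of 6 other carriers 1 rose, the sterol carrier gene Scp2 (0.30 ± 0.04, and -0.28 after that scaling), while Alb (0.17), Fabp7 (-0.16) and Hspa1a (-0.09) were not called.

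Among 14 other genes of the ABHD hydrolase fold family 5 rose and 8 fell (median log2 fold change -0.36). The depalmitoylase genes Abhd17c (-0.80 ± 0.05) and Abhd17a (-0.77 ± 0.05), the gene Abhd14a (-0.87 ± 0.05) and the mitochondrial hydrolase gene Abhd11 (-0.69 ± 0.05) fell. Abhd17a fell on 2 of its 3 probe sets. The directions of these genes were opposite to that of Abhd4. The 5 that rose, as Abhd4 did, were Abhd3 (0.79, dim), Abhd18 (0.75), Abhd5 (0.35), Abhd14b (0.29) and Abhd17b (0.12). Abhd5 rose on 2 of 3 probe sets and Abhd17b on 2 of 4. Scaled to the poly-A RNAs, 2 of the 5 kept a positive value.

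**Figure D3:**
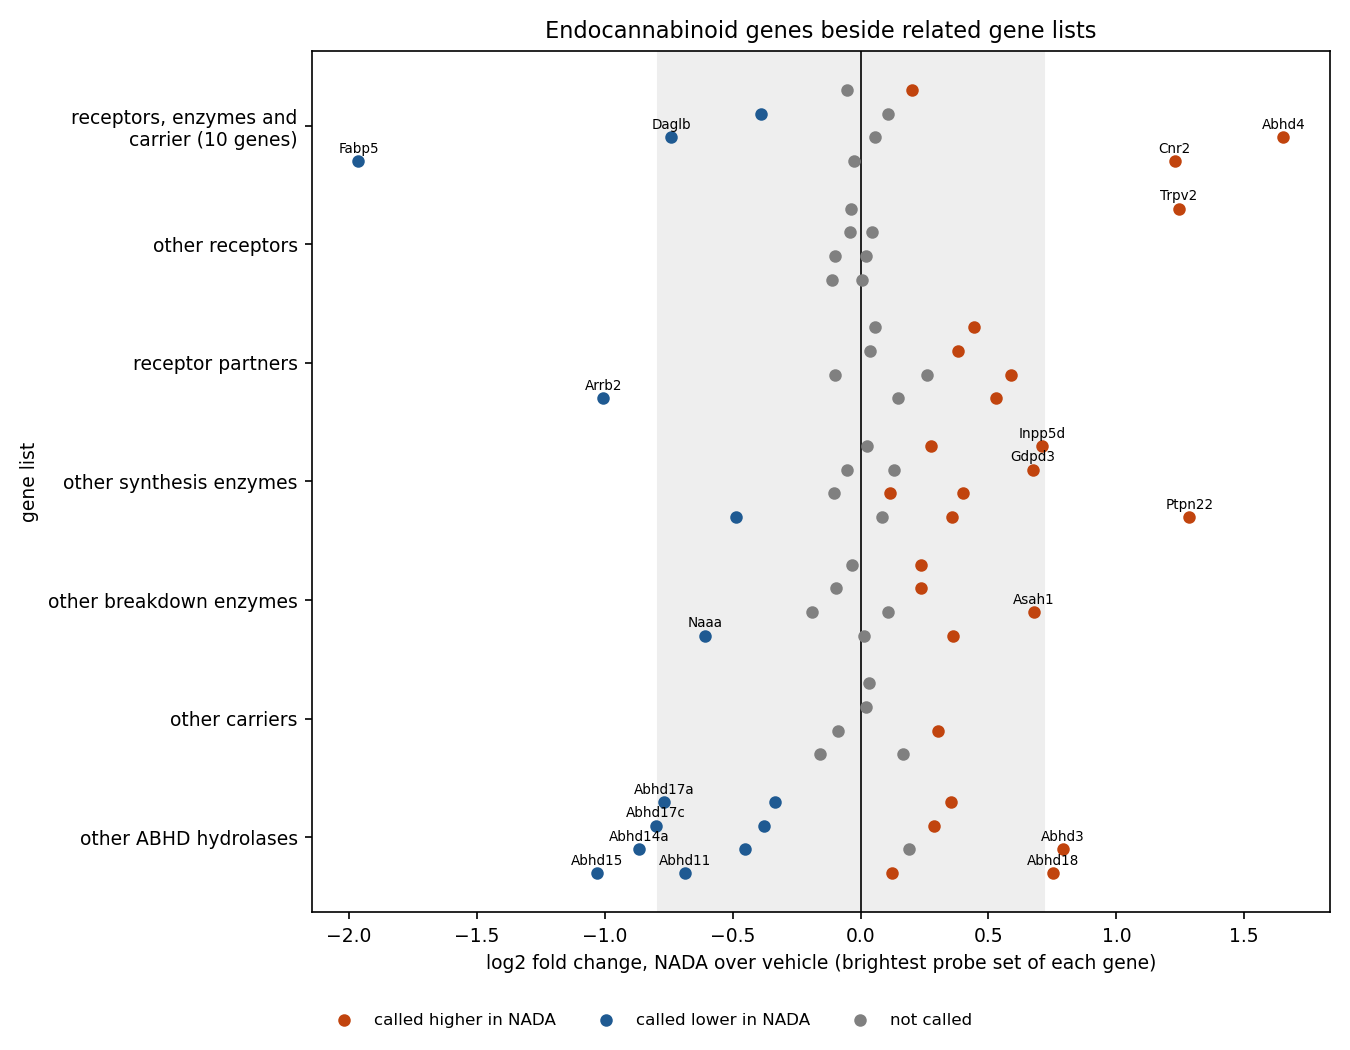
Log2 fold change, NADA over vehicle, of the brightest probe set of each gene in the 10 genes and in 6 related lists, coloured by call, with names where the change was at least 0.6 in either direction and the vertical spread within a row only for legibility. The grey band spans the 5th to 95th percentile of all probe sets. The lists hold calls in both directions, and Fabp5 lies furthest to the left and Abhd4 furthest to the right.

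**Figure D4:**
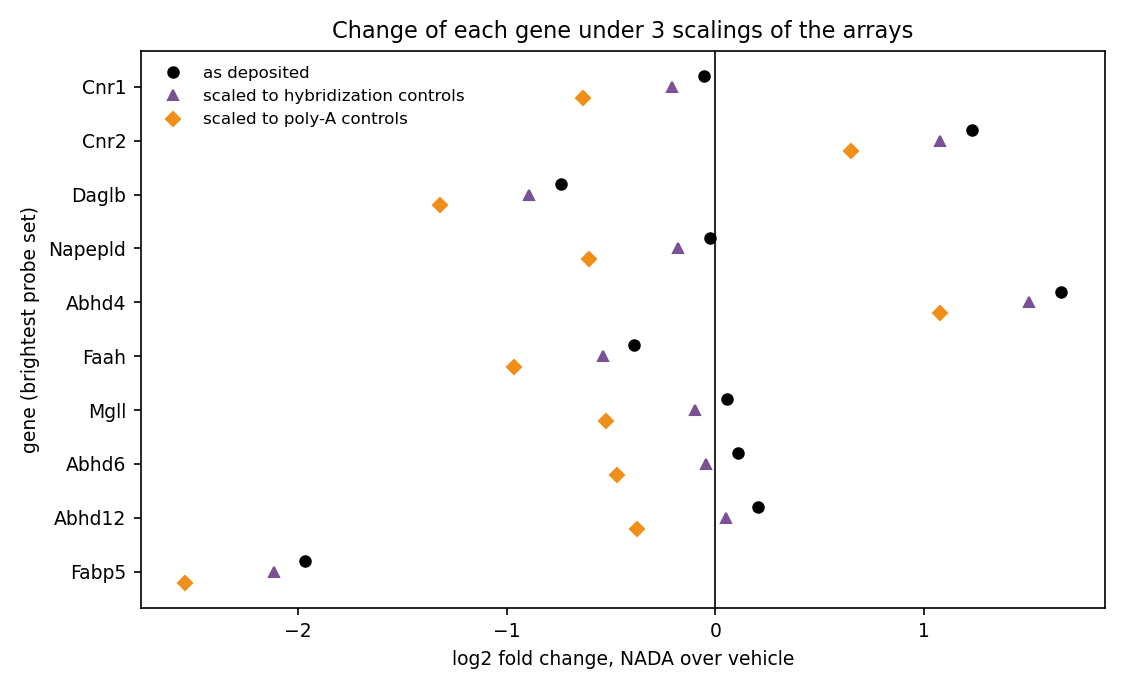
Log2 fold change, NADA over vehicle, of the brightest probe set of each of the 10 genes with the values as deposited (circles), scaled to the hybridization controls (triangles) and scaled to the poly-A controls (diamonds). Cnr2 and Abhd4 stay above 0 and Daglb, Faah and Fabp5 below 0 under all 3, whereas Abhd12, Mgll and Abhd6 change sign.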

How the data were processed

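Total RNA of 6 samples was amplified, labelled with biotin and hybridised, 1 array per sample, per the labels' protocols. The deposited intensity values, 1 per probe set and array on a linear scale, ran from 2.19 to 20113 and were normalized by the authors before deposit. The submitters' processing notes name MAS5 and RMA without role or version, so the normalization method is not known here. A normalization that equalises arrays hides a change shared by most transcripts.

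Control probe sets (64) did not enter the gene tests. Values were used as deposited after log2, with no filter on dim probe sets. NADA was compared with vehicle over all 45037 probe sets by limma 3.58.1 in R 4.3.3 (lmFit, eBayes with an intensity trend, two-sided, group as the only term), and a call needed an adjusted p under 0.05 (Benjamini-Hochberg, over all of them). Rose and fell are used for called probe sets. The brightest probe set by mean intensity stands for its gene. Groups came from the sample titles. From each related list up to 4 genes with the smallest p are named, and always Dagla, Naaa, Trpv1 and Gpr55, and for Cnr2, Abhd4 and Fabp5 the 3 nearest genes. The genes and lists were chosen with earlier results of these data known. Single marker genes named in the text, Arrb1 and the ABHD genes that rose were chosen after their values were seen.

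On simulated data with the same 45037 probe sets and 50 changed at each size, the recovered share was 14% for 1.2-fold changes, 76% for 1.5-fold, 94% for 2-fold and 100% for 3-fold. Of the 147 calls 3.40% were false. Only 200 probe sets were changed there, with independent noise, whereas 39.9% of all probe sets were called in the data. The adjusted threshold is stricter when few probe sets change, so these shares do not carry over to the comparison of NADA with vehicle. Alternatives covered normalization, scaling to control RNAs, low values, the variance model, thresholds, a block for the replicate number and the omission of each array. Promoter sequences are those of RefSeq for GRCm38.p6, matched by symbol for 8 of the 10 genes; Fabp5 and Abhd12 were not matched.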

Additional observations from a re-analysis of the deposited data

How the results depend on the processing

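Of 287 recomputed log2 fold changes of the 19 probe sets over 16 alternatives, 271 stayed called in the same direction or stayed uncalled. Of the rest 6 gained a call, 3 lost it, and 7 changed sign with a call as deposited or in the alternative. Both probe sets of Abhd4, Faah and Fabp5 and those of Cnr2 and Daglb were called in the same direction in all 16 alternatives. Leaving out 1 array gave 4 higher calls each time and 5 to 6 lower calls among the 19, and over all probe sets 8216 to 8901 higher and 8212 to 8676 lower.

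Scaling to the poly-A RNAs, which lowers every log2 fold change by the same amount, gave 3 higher and 16 lower among the 19. Over all probe sets this scaling gave 1578 higher and 37097 lower, by p-values that are too small because the fit treats scatter shared by all probe sets as separate noise. It turned both Abhd12 probe sets (-0.38 and -0.49), both of Abhd6 (-0.56 for 1419103_a_at and -0.47 for 1419104_at) and 3 of Mgll (-0.56, -0.50 and -0.52) to lower calls. Scaling to the hybridization controls gave 5350 higher over all probe sets. Requiring at least 1.5-fold left 3150 higher and 3692 lower over all and 3 lower among the 19, by its construction. The replicate numbers are not said to pair the arrays, and deviations of same-numbered arrays correlated at 0.08, -0.07 and -0.02. With the replicate block 9005 probe sets were higher and 8947 lower, 4 and 5 among the 19. Leaving out 1 array left the differences in control probe sets at 0.50 to 0.70 for the poly-A level, 0.10 to 0.19 for the hybridization controls, 0.37 to 0.42 for Actb, 0.13 to 0.18 for Gapdh and 0.23 to 0.24 for the poly-A 3′ to 5′ ratio, an alternative added after seeing the data. Dim probe sets lie near background, which limits what Cnr1, Napepld, Abhd6, Trpv1 and most probe sets of Mgll can show. The Daglb values in NADA were low as well, and with a floor of 50 its log2 fold change was -0.50, still called.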
